A study of Mus musculus with 10 samples.

Results

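Antiviral effector genes that are switched on by type I interferon were followed in mouse 3T3-L1 preadipocytes after knockdown of the histone demethylase LSD1 (gene Kdm1a). The set is a list of 41 genes: the Mx, Oas, Ifit and Ifi families, viperin (Rsad2), the enzymes of ISG15 conjugation, and other genes with a described antiviral role. A gene was taken from the array through its symbol, by its brightest probe set on average across the 10 arrays. Of the 41 genes, 38 had a probe set of their own, and all 38 were among the 13644 genes tested of 18193 genes on the array. Oas1g, Isg15 and Ifi44 had none that carried their symbol alone and were not analysed here.

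3T3-L1 is an established line of mouse embryo fibroblasts that can be made to differentiate into fat cells, and it was used here undifferentiated. All cells received 60 nM of a double-stranded siRNA by lipid transfection, and the medium was not changed afterwards. The control groups received a scrambled siRNA (siC) and the knockdown groups an siRNA against LSD1 (siLsd1), with 1 siRNA of each kind named in the labels. Effects of less LSD1 and other effects of that siRNA therefore cannot be told apart. RNA was taken 24 h after transfection from cells of passage 19 (2 siC and 2 siLsd1 samples) and 48 h after transfection from cells of passage 21 (3 siC and 3 siLsd1 samples). Each sample, called a biological replicate in its title, was measured on 1 Affymetrix array. Time after transfection and passage cannot be told apart, and no untransfected cells are among the samples, so the level of these genes without transfection is not known from these arrays.

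Type I interferon binds a cell surface receptor, and signalling from it activates transcription factors. These bind a DNA element, the interferon-stimulated response element, in front of many genes. Their products block viruses at successive steps: IFITM3 at membrane fusion, IFIT proteins at foreign RNA, the OAS enzymes through the ribonuclease RNase L, viperin at RNA synthesis, Mx proteins at viral nucleoproteins and tetherin (Bst2) at release. Fibroblasts, preadipocytes included, can make interferon beta and answer to it.

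Kdm1a itself had intensities of 1559 and 1621 on the siC arrays and 1001 and 971 on the siLsd1 arrays at 24 h. At 48 h it had 1596, 1787 and 1775 on the siC arrays and 1352, 1336 and 897 on the siLsd1 arrays. It was lower with siLsd1 by 1.61-fold at 24 h and 1.46-fold at 48 h (limma, adjusted p = 0.0473 and 0.0338). Of 14 preadipocyte and fibroblast markers, 13 had a probe set and 12 were above the dim level, and their summed intensity was 73601 to 76274 (siC, 24 h), 65591 to 65607 (siLsd1, 24 h), 76240 to 77686 (siC, 48 h) and 55170 to 71335 (siLsd1, 48 h). Of 15 leukocyte markers, 5 were dim (Ptprc, Cd3e, Cd79a, Siglech and Itgax) and the other 10 were above the dim level. Among these 10, the mean over all arrays was 114 in Adgre1, 103 in Csf1r, 91.8 in Laptm5, 33.9 in Cd68 and 31.8 in Tyrobp. The summed intensity of the leukocyte markers lay between 989 and 1189 on every array. None of the 10 leukocyte markers tested was called with siLsd1 at either time. Of the 12 preadipocyte and fibroblast markers tested, 2 were called lower with siLsd1 at each time and 0 higher. Thy1 fell by 1.78-fold at both times, Fn1 by 1.37-fold at 24 h and Lum by 3.36-fold at 48 h. Of the 12, 10 had a log2 change below 0 at 24 h and 11 at 48 h, with a median of −0.39 and −0.49; whether this has a part in the changes of the antiviral genes was not tested. Replicate 3 of siLsd1 at 48 h stood apart: over 6943 genes of mean log2 intensity above 8, its log2 values differed from its 2 fellow replicates with an SD of 0.439 and 0.441, against 0.0892 to 0.205 between other arrays of a group. The counts of members and of listed genes called higher or lower with siLsd1 at each time are therefore given with and without it.

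The DNA just upstream of the start of some members is shown because they belong to the genes in which the response element is known. Whether a match goes with a change on the arrays was not tested. RefSeq start sites of GRCm38.p6 were found for 32 of the 41 genes. Windows from 250 bases before to 50 bases after the start were searched on both strands for 2 copies of TTTC with any 2 bases between them (GAAA on the other strand), the core of a response element. A match was present in 13 of the 32 genes (40.6%), against 1079 of 27025 genes (3.99%) with any window and 1131 of 32851 windows (3.44%). The matching genes are Rsad2, Oas1a, Oas1g, Oas3, Ifit1, Ifit1bl1, Ifit3, Isg15, Bst2, Ifitm3, Trim21, Trim30a and Ddx60. The 160 bases before the start are printed 5′ to 3′ on the gene's strand, with the match in capitals. They are given for 6 matching genes of the families described first and for Ifi209, 1 of the genes with no match in the window. In Oas1a, 2 matches overlap, and Ifit1 and Ifit3 hold 2 separate ones. The intervals are chr12:26456453-26456612 (minus strand) for Rsad2, chr19:34640729-34640888 (plus) for Ifit1, chr19:34583369-34583528 (plus) for Ifit3 and chr19:34601969-34602128 (minus) for Ifit1bl1, which is 1 of its 2 windows. They are chr5:120907526-120907685 (minus) for Oas1a, chr5:120777660-120777819 (minus) for Oas3 and chr1:173630699-173630858 (plus) for Ifi209.
Rsad2: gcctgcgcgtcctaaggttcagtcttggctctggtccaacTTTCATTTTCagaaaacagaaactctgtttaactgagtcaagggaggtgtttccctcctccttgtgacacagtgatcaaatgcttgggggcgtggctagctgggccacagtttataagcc
Ifit1: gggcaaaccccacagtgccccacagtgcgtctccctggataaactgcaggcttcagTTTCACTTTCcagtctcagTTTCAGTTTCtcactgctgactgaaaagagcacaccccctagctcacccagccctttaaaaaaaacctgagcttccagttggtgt
Ifit3: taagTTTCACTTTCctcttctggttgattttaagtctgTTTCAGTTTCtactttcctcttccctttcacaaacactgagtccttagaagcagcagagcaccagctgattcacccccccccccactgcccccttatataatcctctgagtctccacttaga
Ifit1bl1: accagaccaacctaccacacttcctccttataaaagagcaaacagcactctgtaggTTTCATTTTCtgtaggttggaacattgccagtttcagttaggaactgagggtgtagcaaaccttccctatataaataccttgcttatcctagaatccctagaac
Oas1a: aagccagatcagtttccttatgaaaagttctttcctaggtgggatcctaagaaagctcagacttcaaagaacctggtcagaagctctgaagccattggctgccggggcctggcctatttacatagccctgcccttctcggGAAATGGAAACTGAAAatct
Oas3: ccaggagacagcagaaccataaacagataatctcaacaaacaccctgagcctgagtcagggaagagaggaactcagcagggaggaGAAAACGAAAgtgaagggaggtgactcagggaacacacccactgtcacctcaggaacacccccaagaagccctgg
Ifi209: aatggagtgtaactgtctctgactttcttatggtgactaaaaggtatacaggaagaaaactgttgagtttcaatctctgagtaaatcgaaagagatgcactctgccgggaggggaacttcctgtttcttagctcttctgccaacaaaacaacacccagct
A match describes the letters and is no measure of binding. Rsad2, Oas1a, Ifit1, Ifit1bl1 and Ifit3 hold a match and were called with siLsd1 at both times, and Oas3 holds 1 and was called at 48 h. Bst2, Ifitm3, Trim21, Trim30a and Ddx60 hold a match and were not called with siLsd1 at either time. Ifi209, Ifit2, Slfn2, Herc6, Isg20, Oasl1 and Ifi35 have no match in their windows and were called at both times. Cmpk2 has none and was called at 48 h. Sp100, Ube2l6, Helz2, Oasl2, Samd9l, Pml, Xaf1, Lgals3bp, Epsti1 and Dtx3l have none and were called at neither time. The 9 genes without a window were Mx1, Mx2, Oas2, Usp18, Ifi27, Ifi27l2a, Rtp4, Parp9 and Parp14.

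With siLsd1, antiviral effector genes were higher than with siC at both times. At 24 h, 15 of the 38 rose and 0 fell, where 2.60% of all genes tested rose and 2.79% fell (limma on log2 intensity, Benjamini-Hochberg adjusted p under 0.05 over all genes tested). At 48 h, 19 of the 38 rose and 1 fell, where 6.00% of all genes rose and 6.67% fell. The 15 that rose at 24 h all rose at 48 h, where 1.83% of all genes rose at both times and 1.64% fell at both. The 4 others at 48 h were Cmpk2, Oas3, Parp14 and Parp9, and the gene that fell was Ifi27. The median log2 change of the 38 was 0.31 at 24 h and 0.46 at 48 h, and that of all genes tested was −0.02 at both times. In bulk samples such as these, more cells expressing a gene and more RNA per cell cannot be told apart.

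The arrays show the same by position. At 24 h both siLsd1 arrays lay above both siC arrays for 31 of the 38 genes (27.5% of all genes) and below for 3 (33.9%), which were Ifi27, Ifi27l2a and Pml. At 48 h all 3 siLsd1 arrays lay above all 3 siC arrays for 23 genes (16.6%) and below for 1 (20.9%), Ifi27. The 15 calls at 24 h rested on 2 arrays a group. Leaving out any 1 of these arrays leaves 1 array in its group, which was assumed to vary as the other groups do. Fewer members and fewer of all genes were then called higher. The median log2 change of the 38 was 0.27 without siC replicate 1 and 0.38 without siC replicate 2. It was 0.25 without siLsd1 replicate 1 and 0.37 without siLsd1 replicate 2. That of all genes tested was −0.04, −0.02, −0.01 and −0.03 in the same order. Over all alternative fits, the lowest log2 change at 24 h was 1.45 in Rsad2, 1.40 in Ifit2 and 0.91 in Slfn2. Without siLsd1 48 h replicate 3, which also enters the shared spread, the counts were 23 higher and 1 lower at 24 h (10.1% and 15.3% of all genes) and 31 higher and 1 lower at 48 h (8.16% and 9.96%). In that fit 6 and 4 of the preadipocyte and fibroblast markers were lower, with a median of −0.18 at 48 h, and 1 leukocyte marker was higher and 1 lower at 24 h. Without that array, the siLsd1 arrays at 48 h lay above the siC arrays for 33 members (21.6% of all genes) and below for 1 (25.8%). With each array centred on its median, 18 members were higher at 24 h (3.41% of all genes) and 25 at 48 h (7.62%), and the share of all called genes that were higher went from 48.2% to 58.9% at 24 h and from 47.3% to 58.2% at 48 h.

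**Figure D1:**
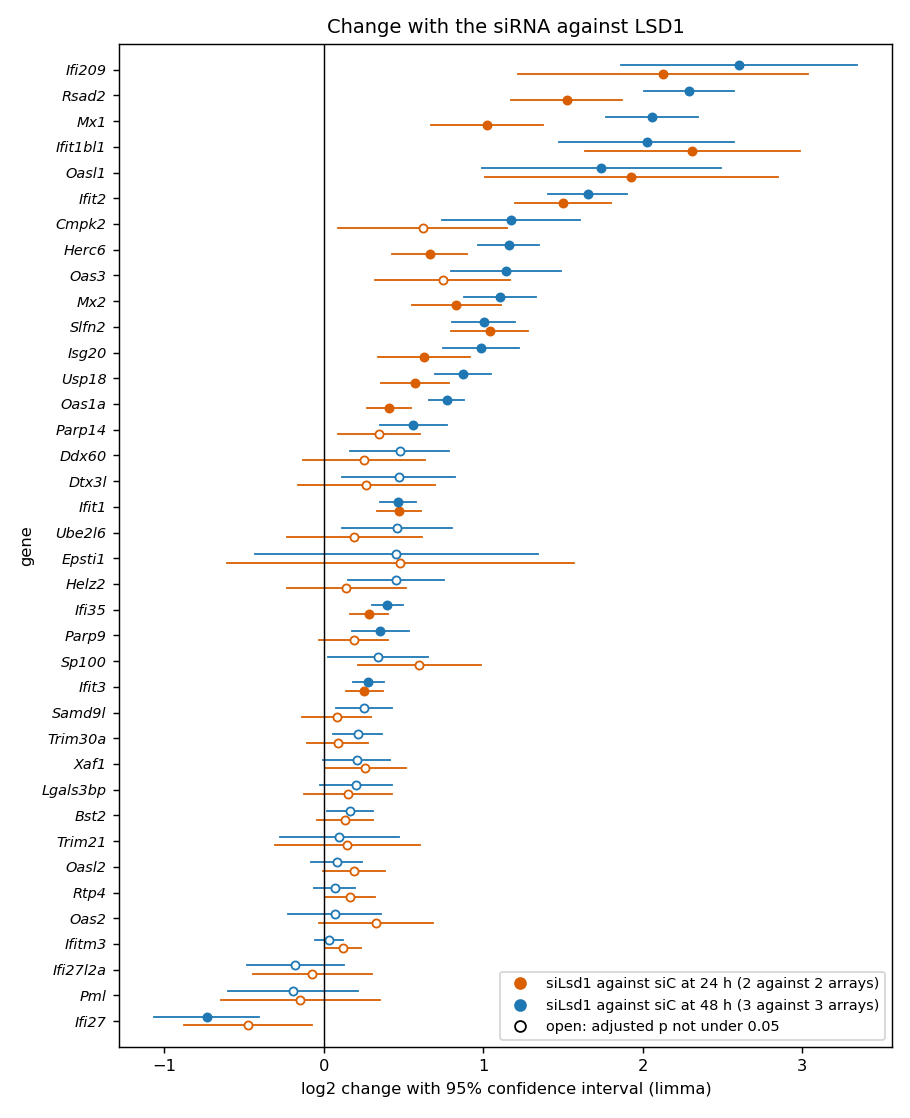
Log2 change of each of the 38 genes with siLsd1 at 24 h (orange, 2 against 2 arrays) and 48 h (blue, 3 against 3 arrays), with 95% confidence intervals from limma; filled points have an adjusted p under 0.05. At 48 h 19 filled points lie to the right of 0 and 1, Ifi27, to the left; at 24 h 15 lie to the right and 0 to the left.

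Mx1 and Mx2 are dynamin-like GTPases that trap viral nucleoproteins. Mx1 had intensities of 2068 and 2369 on the siC arrays and 4878 and 4141 on the siLsd1 arrays at 24 h, and 526, 465 and 536 on the siC arrays and 1906, 1905 and 2598 on the siLsd1 arrays at 48 h. At either time every siLsd1 array was above every siC array, and the siLsd1 arrays at 48 h were level with the siC arrays at 24 h. Its log2 change with siLsd1 was 1.02 ± 0.16 (adjusted p = 0.00806) at 24 h and 2.06 ± 0.13 (adjusted p = 5.33e-05) at 48 h (limma, ± SE), which are 2.03-fold and 4.16-fold. Mx2 had 1471 and 1555 on the siC arrays and 2852 and 2536 on the siLsd1 arrays at 24 h, and 834, 807 and 857 on the siC arrays and 1638, 1649 and 2109 on the siLsd1 arrays at 48 h. It rose by 1.78-fold at 24 h (adjusted p = 0.00726) and 2.15-fold at 48 h (adjusted p = 0.000315), with no overlap of arrays.

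Rsad2 encodes viperin, a radical enzyme that makes a chain-terminating nucleotide, and Cmpk2, the nucleotide kinase encoded next to it, supplies its substrate. Rsad2 had 4082 and 4082 on the siC arrays and 12212 and 11254 on the siLsd1 arrays at 24 h, and 1388, 1193 and 1269 on the siC arrays and 5537, 5552 and 7961 on the siLsd1 arrays at 48 h. The 2 siC arrays at 24 h agreed to the unit shown, and the siLsd1 arrays were above them at both times. The log2 change was 1.52 ± 0.16 (adjusted p = 0.00224) at 24 h and 2.29 ± 0.13 (adjusted p = 3.99e-05) at 48 h, which are 2.87-fold and 4.88-fold. Its other 2 probe sets moved further, with log2 changes of 2.02 and 2.04 at 24 h and of 2.75 and 2.66 at 48 h. Cmpk2 had 1875 and 2444 on the siC arrays and 3480.5 and 3107 on the siLsd1 arrays at 24 h, and 823, 1054 and 1187 on the siC arrays and 2719, 2580.5 and 1683 on the siLsd1 arrays at 48 h. It rose by 2.25-fold at 48 h (adjusted p = 0.00779), with replicate 3 the lowest of the siLsd1 arrays, and at 24 h its log2 change was 0.62 (adjusted p = 0.157), although the arrays did not overlap.

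The oligoadenylate synthetases Oas1a, Oas2 and Oas3 sense double-stranded RNA and make the messenger that activates RNase L, while the related Oasl1 and Oasl2 are OAS-like proteins. Of the 5, Oas1a and Oasl1 rose at both times, Oas3 rose at 48 h, and Oas2 and Oasl2 were called at neither. Oas1a had 5447 and 5330.3 on the siC arrays and 7261 and 7022 on the siLsd1 arrays at 24 h, and 3181, 3001 and 3223 on the siC arrays and 5189, 5315 and 5520.2 on the siLsd1 arrays at 48 h. The replicates lay close together, and the log2 change was 0.41 ± 0.06 (adjusted p = 0.00769) at 24 h and 0.77 ± 0.05 (adjusted p = 5.34e-05) at 48 h. Oas3 had 159 and 133 on the siC arrays and 257 and 232 on the siLsd1 arrays at 24 h, and 62.2, 58.0 and 64.6 on the siC arrays and 147, 159 and 107 on the siLsd1 arrays at 48 h. Its log2 change was 0.75 ± 0.19 at 24 h, just short of a call (adjusted p = 0.0507), and 1.14 ± 0.15 (adjusted p = 0.00333) at 48 h.

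Oasl1, a repressor of Irf7 translation in mice, had 80.2 and 81.1 on the siC arrays and 306 and 307 on the siLsd1 arrays at 24 h, and 5.51, 15.6 and 12.4 on the siC arrays and 26.6, 39.3 and 37.8 on the siLsd1 arrays at 48 h. All 3 siC arrays at 48 h were under the dim level of 18.4 intensity units below which a gene's mean counted as too low to test. The log2 change with siLsd1 was 1.93 ± 0.41 (adjusted p = 0.0278) at 24 h and 1.74 ± 0.34 (adjusted p = 0.0142) at 48 h, 3.80-fold and 3.34-fold. With intensities under the dim level raised to it, the 48 h fold was 1.85. Oas2 had 959 and 1031 on the siC arrays and 1325 and 1173 on the siLsd1 arrays at 24 h, and 1349, 1337 and 1387 on the siC arrays and 1621, 1593 and 1112 on the siLsd1 arrays at 48 h. Its log2 change was 0.33 at 24 h (adjusted p = 0.269) and 0.07 at 48 h (adjusted p = 0.769), with siLsd1 replicate 3 below every siC array at 48 h and replicates 1 and 2 above. Oasl2 changed by 0.19 and 0.08 on the log2 scale, neither of them called.

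The Ifit proteins act against foreign RNA, and all 4 members of the family on the list rose at both times. Ifit1bl1 had 377 and 386 on the siC arrays and 2233 and 1601 on the siLsd1 arrays at 24 h, and 96.8, 99.5 and 111 on the siC arrays and 341, 317 and 667 on the siLsd1 arrays at 48 h. Its log2 change was 2.31 ± 0.30 (adjusted p = 0.00467) at 24 h, the largest of the 38 at that time, and 2.02 ± 0.25 (adjusted p = 0.00185) at 48 h. At 48 h replicate 3 was above the mean of the other two siLsd1 arrays by 1.02 on the log2 scale, and without it the log2 change was 1.68. Ifit2 had 2850.0 and 3183 on the siC arrays and 9167 and 7924 on the siLsd1 arrays at 24 h, and 1247, 1279.5 and 1481 on the siC arrays and 3781, 3971 and 4917 on the siLsd1 arrays at 48 h. It rose by 2.83-fold (adjusted p = 0.00153) and 3.15-fold (adjusted p = 5.34e-05) at 24 h and 48 h.

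Ifit1 and Ifit3 rose by less. They are among the 9 members with a mean intensity of at least 5000, whose median fold in either direction was 1.12 at 24 h and 1.19 at 48 h. It was 1.39 and 1.475 for the 29 dimmer members. Whether intensity has a part in the size of a change was not tested. Ifit1 had 6415 and 6299 on the siC arrays and 9140.0 and 8485 on the siLsd1 arrays at 24 h, and 4634, 4332 and 4483 on the siC arrays and 6089.5, 6026 and 6421 on the siLsd1 arrays at 48 h. The log2 change was 0.47 ± 0.06 at 24 h and 0.46 ± 0.05 at 48 h (adjusted p = 0.00473 and 0.00096). Ifit3, a partner of Ifit1, had 10251 and 10187 on the siC arrays and 12546 and 11808 on the siLsd1 arrays at 24 h, and 8049, 7584 and 7662 on the siC arrays and 9418, 9533 and 9308 on the siLsd1 arrays at 48 h. It rose by 1.19-fold and 1.21-fold (adjusted p = 0.025 and 0.00549), the smallest rise among the members called at either time, and its arrays did not overlap at either time.

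**Figure D2:**
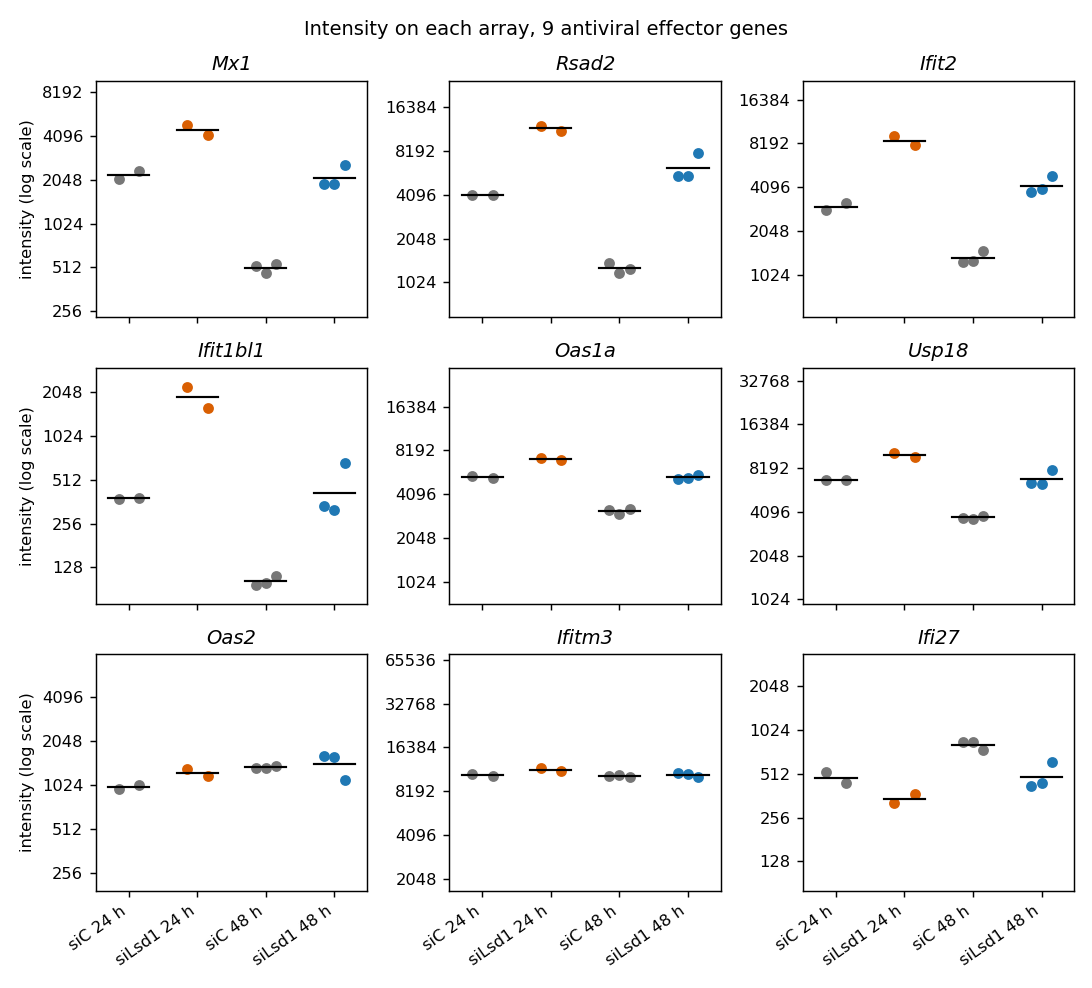
Intensity (log scale) of 9 of the genes on each array by group, with 1 point per array and a bar at the mean of the group. For Mx1, Rsad2, Ifit2, Ifit1bl1, Oas1a and Usp18 the siLsd1 arrays lie above the siC arrays of the same time and the siC arrays are lower at 48 h than at 24 h; Oas2 and Ifitm3 show no such order and Ifi27 shows the opposite one.

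ISG15 is a ubiquitin-like protein that Ube2l6 and Herc6 help to attach to targets in mice and that Usp18 removes; Usp18 also damps signalling at the interferon receptor. Usp18 had 6786 and 6793 on the siC arrays and 10435 and 9740.2 on the siLsd1 arrays at 24 h, and 3742, 3671 and 3846 on the siC arrays and 6445, 6348 and 7913 on the siLsd1 arrays at 48 h. The log2 change was 0.57 ± 0.10 (adjusted p = 0.011) at 24 h and 0.87 ± 0.08 (adjusted p = 0.000287) at 48 h. Herc6 had 2209 and 2176 on the siC arrays and 3682 and 3276 on the siLsd1 arrays at 24 h, and 928, 1012 and 985 on the siC arrays and 2044, 2054 and 2458 on the siLsd1 arrays at 48 h. It rose by 1.58-fold at 24 h and 2.23-fold at 48 h (adjusted p = 0.00865 and 9.68e-05), and its 3 other probe sets were called higher at both times too. Ube2l6 had 482, 529.8 and 490.5 on the siC arrays and 833, 761 and 512 on the siLsd1 arrays at 48 h. Its first 2 siLsd1 arrays were the higher, the third lay among the siC arrays, and the log2 change of 0.46 was not called (adjusted p = 0.0758). Isg20, an exonuclease that degrades viral RNA, had 1673 and 1633 on the siC arrays and 2670.4 and 2440.3 on the siLsd1 arrays at 24 h, and 778, 806 and 779 on the siC arrays and 1721, 1702 and 1291 on the siLsd1 arrays at 48 h. It rose by 1.54-fold and 1.98-fold (adjusted p = 0.0255 and 0.000811).

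Ifi209, a nucleic acid-binding protein of the PYHIN family, had 93.7 and 98.1 on the siC arrays and 470.3 and 372 on the siLsd1 arrays at 24 h, and 13.3, 19.3 and 20.6 on the siC arrays and 83.3, 72.2 and 196 on the siLsd1 arrays at 48 h. Its log2 change was 2.13 ± 0.41 (adjusted p = 0.0193) at 24 h and 2.60 ± 0.33 (adjusted p = 0.00242) at 48 h, the largest of the 38 at that time, at 4.36-fold and 6.07-fold. Of the siC arrays at 48 h, 1 was under the dim level, and raising it gave 5.45-fold. Its dimmer other probe set, with a mean of 24.3 over the arrays, had log2 changes of 2.05 at 24 h (adjusted p = 0.15) and 1.29 at 48 h (adjusted p = 0.167), neither called. Rsad2 had the larger log2 change at 48 h when the probe sets of each gene were averaged (1.95 for Ifi209 and 2.56 for Rsad2), with 16 added before log2 (1.87 and 2.27) and with array weights (2.05 and 2.20). Replicate 3 of siLsd1 was the highest array at 48 h, and without it the log2 change was 2.16. Slfn2, a Schlafen protein that protects transfer RNA, had 859 and 887 on the siC arrays and 1964 and 1638 on the siLsd1 arrays at 24 h, and 497, 506 and 497 on the siC arrays and 949, 969.9 and 1092 on the siLsd1 arrays at 48 h. It rose by 2.05-fold at 24 h and 2.00-fold at 48 h (adjusted p = 0.00224 and 0.000258), a near equal change at both times. Ifi35, which pairs with Nmi, rose by 1.22-fold and 1.32-fold (adjusted p = 0.0172 and 0.000921), and its 2 other probe sets were called higher at both times.

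Parp9 and Dtx3l form a complex that joins ADP-ribose and ubiquitin, and Parp14 is a related mono-ADP-ribosyltransferase. At 48 h Parp14 had 2255, 2290.4 and 2472 on the siC arrays and 3723, 3775 and 2916 on the siLsd1 arrays, and rose by 0.56 ± 0.09 on the log2 scale (adjusted p = 0.00814). Parp9 had 1811, 1712 and 1927 and 2361, 2513 and 2098, and rose by 0.35 ± 0.08 (adjusted p = 0.0241). In both genes the siLsd1 arrays were all above the siC arrays, with replicate 3 the lowest of them. The Parp9 call was lost without siC 48 h replicate 1 or without replicate 2, and the Parp14 call with the mean of its probe sets (adjusted p = 0.0575). Dtx3l had 1737, 2188 and 2338 and 3408, 3019 and 2285, which overlap, and its log2 change of 0.47 was not called (adjusted p = 0.0756). Its other probe set was called higher at 48 h, by 0.48.

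Tetherin (Bst2) and Ifitm3 act at membranes and were called at neither time. Bst2 had 8980.0 and 8457 on the siC arrays and 9507 and 9599.8 on the siLsd1 arrays at 24 h, and 8241, 7417 and 7556 on the siC arrays and 8316, 8224 and 9466 on the siLsd1 arrays at 48 h. The siLsd1 arrays were above the siC arrays at 24 h and overlapped them at 48 h, and the log2 changes were 0.13 and 0.16 (adjusted p = 0.36 and 0.115). Ifitm3 had 10691 and 10460.4 on the siC arrays and 11748 and 11233 on the siLsd1 arrays at 24 h, and 10382, 10545 and 10283 on the siC arrays and 10899, 10749 and 10267 on the siLsd1 arrays at 48 h. All 10 values lay within a narrow range, and the log2 change was 0.12 at 24 h (95% interval 0.009 to 0.23) and 0.03 at 48 h (−0.06 to 0.12).

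The helicase genes Ddx60 and Helz2 came close to the threshold at 48 h. Ddx60 had 563, 555 and 701 on the siC arrays and 831, 999 and 707 on the siLsd1 arrays (log2 change 0.47, adjusted p = 0.0518). Helz2 had 1712, 2007 and 2183 and 2960.4, 3009.8 and 2152 (log2 change 0.45, adjusted p = 0.0555). In Ddx60 the arrays did not overlap, and in Helz2 siLsd1 replicate 3 lay below siC replicate 3. Samd9l, a growth-restraining antiviral factor, had 3907, 4066 and 4380.3 and 5019, 5275 and 4437 (log2 change 0.25, adjusted p = 0.0618), again without overlap. At 24 h these 3 had log2 changes of 0.25, 0.14 and 0.08.

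Sp100 and Pml are proteins of PML nuclear bodies, and their changes had opposite signs, none of them called. Sp100 had 383 and 330.0 on the siC arrays and 543 and 532 on the siLsd1 arrays at 24 h, and 343, 305 and 242 on the siC arrays and 403, 397 and 320.4 on the siLsd1 arrays at 48 h. Its log2 change was 0.60 at 24 h (adjusted p = 0.0757) and 0.34 at 48 h (adjusted p = 0.132), with overlap at 48 h alone. Pml had 761 and 698 on the siC arrays and 678 and 637 on the siLsd1 arrays at 24 h, and 731, 702 and 663 on the siC arrays and 709.6, 754 and 424 on the siLsd1 arrays at 48 h. Its log2 change was -0.15 and -0.19 (adjusted p = 0.75 and 0.503), and at 48 h only replicate 3 was below the siC arrays. That array was lower than its fellow replicates by 0.79 on the log2 scale in Pml, the largest such drop of the 38.

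The other 8 genes had small changes and no call. They are Trim21, an intracellular antibody receptor, Trim30a, Xaf1, an apoptosis factor, Rtp4, Lgals3bp, a secreted glycoprotein, Oasl2, Epsti1 and Ifi27l2a. Their log2 changes lay between -0.07 (Ifi27l2a) and 0.48 (Epsti1) at 24 h and between -0.18 and 0.45 at 48 h. Epsti1 was barely measured, with 13.6 and 30.1 on the siC arrays and 27.1 and 29.4 on the siLsd1 arrays at 24 h, around the dim level. Ifi27l2a had 6956, 6655 and 6799 on the siC arrays and 6961, 6909 and 4512 on the siLsd1 arrays at 48 h, where replicate 3 alone was low. At 48 h the siLsd1 arrays lay above the siC arrays in Trim30a (3889.8, 3923 and 3339 against 3192, 3110.5 and 3309.8) and Xaf1 (4779.9, 4717 and 4701 against 4535, 4188 and 3643), and overlapped them in the other 6.

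Ifi27, a small membrane protein induced by interferon in many cells, was the only member called lower with siLsd1, at 48 h, while Ifi27l2a and Pml had log2 changes below 0 at both times without a call. Ifi27 had 525 and 442 on the siC arrays and 321 and 373 on the siLsd1 arrays at 24 h, and 846, 848 and 740.5 on the siC arrays and 420.1, 445 and 615 on the siLsd1 arrays at 48 h. The siLsd1 arrays were below the siC arrays of the same time throughout. The log2 change was -0.48 ± 0.18 at 24 h, which was not called (adjusted p = 0.151), and -0.74 ± 0.15 at 48 h, a fall of 1.66-fold (adjusted p = 0.0158). The 48 h call was lost without siC replicate 1 (adjusted p = 0.0607) or replicate 2 (0.0722). Another probe set of Ifi27 had log2 changes of −0.97 at 24 h (adjusted p = 0.0695) and −1.13 at 48 h (adjusted p = 0.0151).

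The controls also differed between the times. With siC, 24 of the 38 genes were lower at 48 h than at 24 h and 1 was higher, where 12.2% of all genes were lower and 12.02% higher at adjusted p under 0.05, and the median log2 change was −0.52 against 0.01 for all genes. For 31 genes every siC array at 48 h lay below both at 24 h (26.9% of all genes), and for 3 every one lay above (28.7%): Ifi27, Ifi27l2a and Oas2. Mx1 fell by 4.36-fold (log2 change -2.12 ± 0.14 (adjusted p = 3.08e-05)), Rsad2 by 3.19-fold (-1.67 ± 0.14 (adjusted p = 7.7e-05)) and Ifit1bl1 by 3.72-fold (-1.90 ± 0.28 (adjusted p = 0.00112)). Oasl1 fell by 7.90-fold and Ifi209 by 5.51-fold as fitted (adjusted p = 0.000508 and 0.00139), or by 4.38-fold and 4.94-fold with intensities under the dim level raised to it. Ifi27 rose by 1.68-fold (adjusted p = 0.00922), a call lost without siC 24 h replicate 2 (adjusted p = 0.0916). Oas2 had a log2 change of 0.45 (adjusted p = 0.0506). These siC arrays are also the controls of the siLsd1 comparisons.

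Among the genes lower in siC at 48 h that were not called with siLsd1, Samd9l fell by 0.58, Ddx60 by 0.73, Trim30a by 0.33, Lgals3bp by 0.37 and Xaf1 by 0.36 on the log2 scale (adjusted p = 0.00145, 0.0086, 0.0128, 0.0376 and 0.0309). The calls of Ddx60 and of Cmpk2 (-1.08) were lost without siC 24 h replicate 2, that of Trim30a without siC 24 h replicate 2 or siC 48 h replicate 2, that of Xaf1 without siC 24 h replicate 1, siC 48 h replicate 2 or 3, or either siLsd1 24 h array, and that of Lgals3bp without any of these or siC 24 h replicate 2. All 15 genes that rose with siLsd1 at both times were also lower in siC at 48 h, where 0.880% of all genes had that pattern. They are Mx1, Mx2, Rsad2, Oasl1, Oas1a, Ifit1, Ifit1bl1, Ifit2, Ifit3, Isg20, Usp18, Ifi35, Ifi209, Herc6 and Slfn2.

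**Figure D3:**
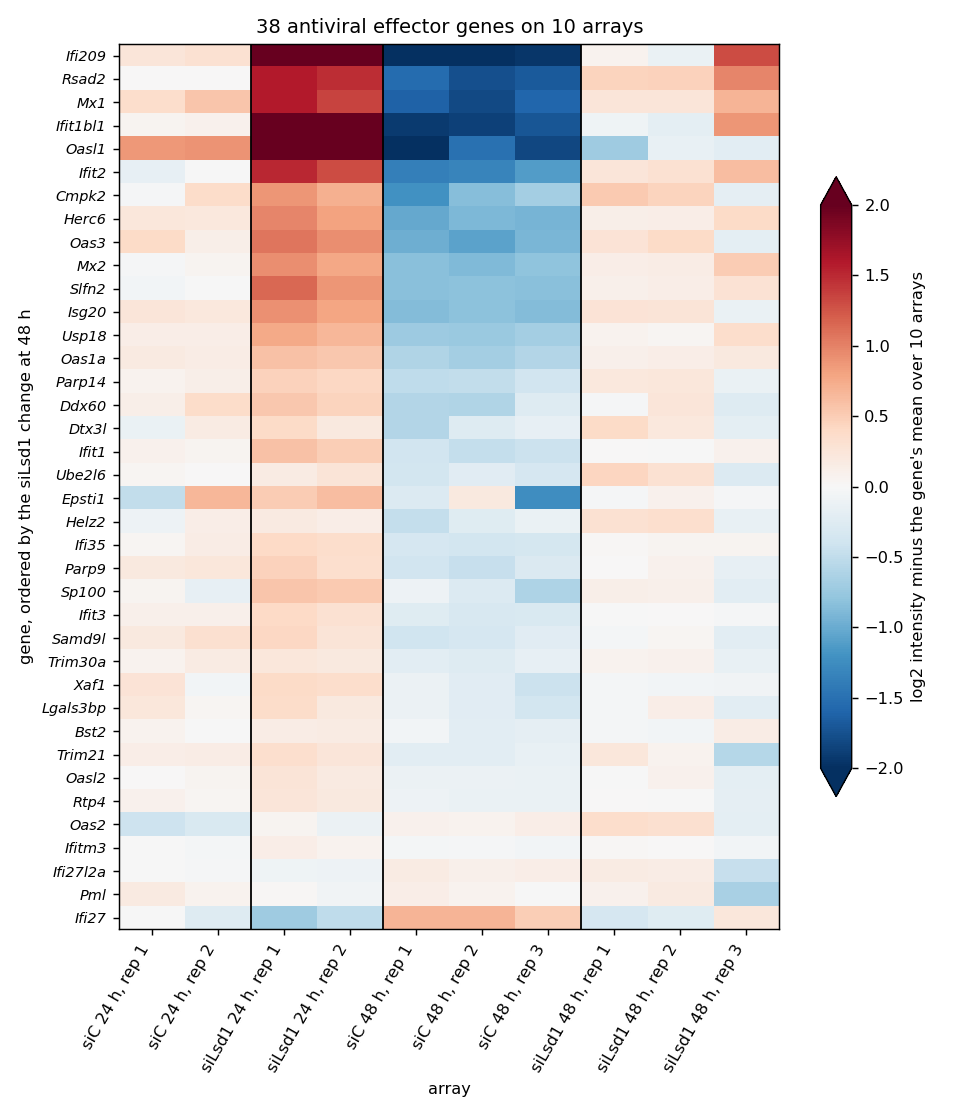
Log2 intensity of each of the 38 genes on each of the 10 arrays, minus the mean of the gene over the 10 arrays (red above, blue below, colours end at −2 and 2), with genes in the order of their siLsd1 change at 48 h. The siLsd1 24 h columns are the reddest and the siC 48 h columns the bluest in the upper rows, and Ifi27 in the last row has the opposite colours.

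The 4 group means of a gene fell into 2 main orders. In 20 genes siLsd1 at 24 h was highest, followed by siC at 24 h, siLsd1 at 48 h and siC at 48 h. In 13 genes siLsd1 at 24 h was highest, followed by siLsd1 at 48 h, siC at 24 h and siC at 48 h. The 5 exceptions, with an order of their own each, were Pml, Ifi27l2a, Ifi27, Oas2 and Helz2. The middle pair of groups lay close together: siLsd1 at 48 h minus siC at 24 h had a median log2 difference of −0.02, with 35 of 38 genes within 0.5 and overlapping arrays in 28. The extremes were Oasl1 at −1.24 and Rsad2 at 0.62, and no test was made of this difference, which joins siRNA, time and passage. Against siLsd1 at 24 h, siLsd1 at 48 h was lower in 34 of the 38, with a median of −0.42.

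Whether the siLsd1 change itself differed between the times was tested as the difference of the 2 changes. None of the 38 was called (0.00% of all genes), and 5 had an unadjusted p under 0.05, where 6.57% of all genes did. All 5 had a higher change at 48 h, the direction of 3.55% of all genes, against 3.01% in the other. They were Mx1 (difference 1.03 ± 0.20 on the log2 scale, adjusted p = 0.446), Rsad2 (0.77, adjusted p = 0.502), Herc6 (0.50, 0.518), Oas1a (0.36, 0.446) and Usp18 (0.30, 0.708). Without siLsd1 48 h replicate 3, 4 were called (1.08% of all genes higher): Mx1 at 0.88, Rsad2 at 0.59, Isg20 at 0.49 and Oas1a at 0.34. Slfn2 and Ifit1 had differences of -0.04 (95% interval −0.35 to 0.27) and -0.01 (−0.19 to 0.17).

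Replicate 3 of siLsd1 at 48 h deviated in both directions among these genes. It was the highest of the 3 replicates in 14 genes, the lowest in 23 and between the others in 1, Oasl1; over all genes it was highest in 39.5% and lowest in 47.0%. Its log2 value exceeded the mean of replicates 1 and 2 by 1.34 in Ifi209, 1.02 in Ifit1bl1, 0.52 in Rsad2, 0.51 in Ifi27 and 0.45 in Mx1. It was lower by 0.79 in Pml, 0.72 in Trim21, 0.65 in Cmpk2, 0.64 in Ube2l6 and 0.62 in Ifi27l2a. Without it, 12 further genes were called higher at 48 h: Oasl2, Oas2, Rtp4, Dtx3l, Trim21, Trim30a, Samd9l, Sp100, Helz2, Ddx60, Lgals3bp and Ube2l6. Kdm1a was also lowest on this array, and whether that has a part in the deviation was not tested.

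**Figure D4:**
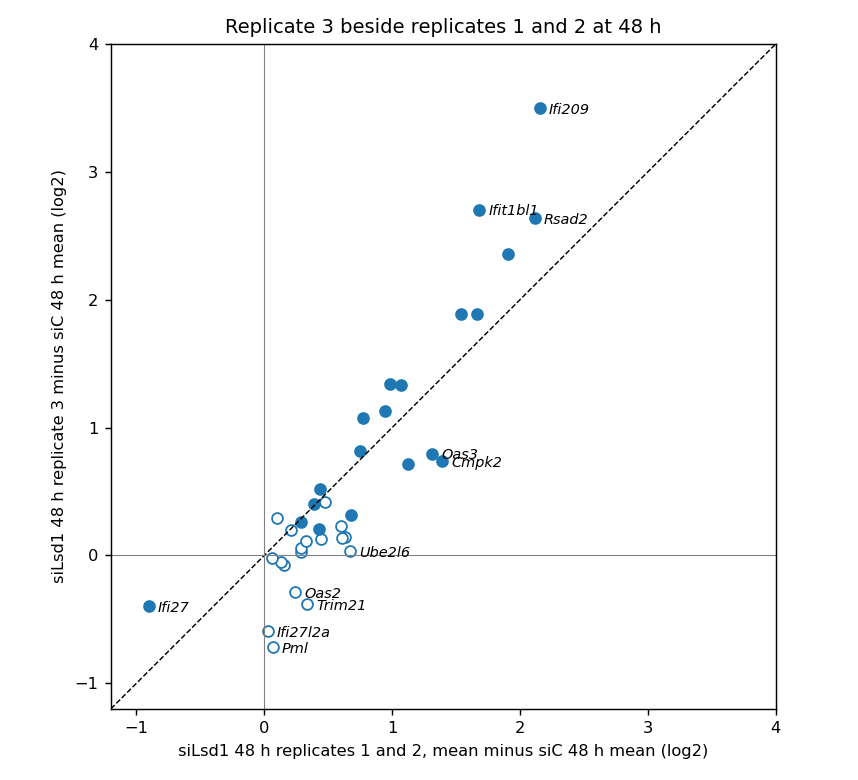
Log2 difference from the siC 48 h mean on siLsd1 48 h replicate 3 (vertical) against the mean of replicates 1 and 2 (horizontal) for the 38 genes, with a dashed line where the 2 are equal and filled points for genes called at 48 h. Ifi209, Ifit1bl1 and Rsad2 lie above the line and Pml, Ifi27l2a, Trim21, Ube2l6 and Cmpk2 below it.

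Other probe sets of the same genes gave a check within the arrays. Of the 38 genes, 16 had several, with 23 other probe sets in all, of which 4 were dim. Among the remaining 19, the sign was opposite to that of the reported probe set in 1 at 24 h and in 3 at 48 h, none of them called. These were Xaf1 at both times and Rtp4 and Sp100 at 48 h. In the siC comparison of the times 4 were opposite, in Pml, Rtp4, Xaf1 and Parp14. For Parp14 the other probe set was called higher at 48 h (log2 change 0.69, adjusted p = 0.0181) where the reported one was called lower (-0.55, adjusted p = 0.00477). The direction of Parp14 between the siC groups, which differ in time and passage, thus depends on the probe set. The other probe set was the far dimmer, with a mean of 73.0 over the arrays against 3213.

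The pathway upstream of these genes was read from a list of 19 interferon signalling genes, of which 17 were tested. With siLsd1, 4 rose and 1 fell at 24 h, and 5 rose and 0 fell at 48 h, where 2.60% and 6.00% of all genes rose and 2.79% and 6.67% fell; the list's median log2 change was 0.12 at both times. Without siLsd1 48 h replicate 3, 6 rose and 1 fell at 24 h (10.1% and 15.3% of all genes), and 7 rose and 0 fell at 48 h (8.16% and 9.96%). Ifnb1, interferon beta itself, rose by 6.97-fold and 4.37-fold, its feedback inhibitor Socs1 by 2.00-fold and 1.74-fold, and the transcription factor Irf1 by 1.63-fold and 1.47-fold. Irf2 rose by 1.26-fold and 1.19-fold, Irf7, which drives interferon transcription, was called at 48 h alone (1.40-fold; 1.23-fold at 24 h, adjusted p = 0.13), and the receptor chain Ifnar1 was called lower at 24 h alone, by 1.35-fold. In siC at 48 h against 24 h, 2 of the 17 were higher and 6 lower, where 12.02% of all genes were higher and 12.2% lower, and Ifnb1 was lower by 4.46-fold. The share of the list that was higher, 11.8%, is near that of all genes.

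Relatives of the members by family, such as further Oas, Ifi200, Schlafen and Trim30 genes, numbered 45, of which 25 were tested. With siLsd1, 4 rose and 0 fell at 24 h (median log2 change 0.21) and 10 rose and 0 fell at 48 h (0.34), against the same 2.60% and 6.00% of all genes that rose and 2.79% and 6.67% that fell. In siC at 48 h, 3 were higher and 12 lower (12.02% and 12.2% of all genes). Without siLsd1 48 h replicate 3, 7 rose and 2 fell at 24 h (10.1% and 15.3% of all genes), and 12 rose and 0 fell at 48 h (8.16% and 9.96%). Slfn8 rose by 1.91-fold and 2.56-fold, Sp110 by 1.79-fold and 2.62-fold, Oas1b by 1.73-fold and 1.79-fold, Mndal by 1.58-fold and 1.93-fold, and Slfn9 by 1.96-fold at 48 h (1.24-fold at 24 h, adjusted p = 0.524). The last list held 46 other interferon-stimulated genes, of which 40 were tested. Of these, 16 rose and 0 fell at 24 h (median 0.41; 2.60% of all genes rose), 25 rose and 0 fell at 48 h (median 0.59; 6.00%), and 28 were lower and 0 higher in siC at 48 h (12.2% and 12.02%). Without siLsd1 48 h replicate 3, 26 rose and 0 fell at 24 h (10.1% and 15.3% of all genes), and 31 rose and 0 fell at 48 h (8.16% and 9.96%). Cd274, the immune checkpoint ligand PD-L1, rose by 2.08-fold and 3.09-fold, the immunoproteasome subunit Psmb9 by 1.86-fold and 2.64-fold, the necroptosis effector Mlkl by 1.71-fold and 2.63-fold, and the nucleic acid sensor Zbp1 by 1.72-fold and 2.27-fold.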

How the data were processed

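Total RNA of 10 samples was labelled with biotin and hybridised to 1 Affymetrix array each, per the labels' protocols. The deposited values are linear intensities, 1 per probe set and array; summarisation and normalization are not given in the sources used here. Array medians were 35.6 to 40.6 intensity units; with so few arrays, precision rests on their number. Of 45037 probe sets, 34945 carried 1 gene symbol, 932 several and 9160 none.

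Intensities were taken to log2 with nothing added. The 25% of genes with the lowest geometric mean (up to 18.4) were left out. A mean for each of 4 groups was fitted with limma 3.58.1 (R 4.3.3; functions lmFit and eBayes, intensity trend on, 10 arrays, 6 residual degrees of freedom), and p-values were adjusted by Benjamini and Hochberg over 13644 genes within a comparison. Genes were called at adjusted p under 0.05. The fit was tested on simulated data with 50 changed genes of each size. Of log2 changes of 0.5, it called 20.0% at 24 h, 32.0% at 48 h, 12.0% for the difference and 36.0% for siC with time. Of log2 changes of 1.0, it called 64.0%, 72.0%, 38.0% and 66.0% in the same order. Of unchanged genes, it called 0.0223% to 0.0818%. A gene that was not called may therefore still have changed.

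The members and the gene lists were chosen with earlier results of these data known. All members are named; up to 12 called members with the largest change at each time have their arrays printed, with others added where a result turns on them, and lists name up to 4 called genes. Same-numbered siC and siLsd1 arrays correlated at −0.07 (24 h) and at −0.19, 0.05 and −0.06 (48 h), so replicate numbers were not taken as pairs. Promoter windows came from RefSeq (GRCm38.p6).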

Additional observations from a re-analysis of the deposited data

How the results depend on the processing

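Of the calls on members, 3 of 15 at 24 h (Rsad2, Ifit2, Slfn2), 16 of 20 at 48 h and 18 of 25 in the siC comparison of times held under every alternative run. Among single members, 56 calls were lost and 34 gained over the alternatives at 24 h, 12 and 38 at 48 h, 0 and 11 for the difference of the changes, and 24 and 31 for siC with time. One called value turned its sign: Parp14 in siC with time was 0.069 (adjusted p = 0.744) with the mean of its probe sets. With array weights, 24 members were higher and 1 lower at 24 h (10.5% and 15.7% of all genes), 33 higher and 1 lower at 48 h (15.6% and 20.4%), 7 had a larger change at 48 h (1.93%), and 2 were higher and 31 lower in siC with time (24.4% and 21.0%). With only the arrays compared, 22 were higher and 1 lower at 24 h (9.42% and 13.9%), 16 higher and 0 lower at 48 h (1.28% and 0.550%), the fewest higher at 48 h under any alternative run, and 3 higher and 27 lower in siC with time (18.1% and 16.4%); for the difference of the changes this was not run. The number higher in siC with time was 2 with the lowest 50% left out (16.7% of all genes), with quantile normalization (14.0%) and with arrays centred on the median (12.7%). It was also 2 with low intensities raised (12.1%) and with 16 added (12.2%). With the replicate number as a block, 11 were higher at 24 h (0.748% of all genes), and 18 were higher and 0 lower at 48 h (3.09% and 1.78%). In that fit 0 were called for the difference (0.00%), and no siC comparison of times can be had from it. Leaving out 1 array of 48 h at a time gave 13 to 23 higher and 0 to 1 lower at 24 h (1.47% to 10.1% and 1.14% to 15.3% of all genes). At 48 h it gave 18 to 31 higher and 0 to 1 lower (1.97% to 8.16% and 0.828% to 9.96%). For the difference it gave 0 to 4 higher and 0 lower (0.00% to 1.08% and 0.00% to 0.396%). In siC with time it gave 1 to 3 higher and 21 to 31 lower (6.90% to 21.1% and 8.61% to 19.3%). Leaving out an array of 24 h leaves 1 array in a group, and these ranges hold no such fit. Causes of these shifts were not tested. Genes near the dim level, Oasl1, Ifi209 and Epsti1, are limited by signal over background.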
